A study of Mus musculus with 2 samples.

Results

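The 5 genes described here encode parts of the phagocyte NADPH oxidase and were chosen by symbol: Cybb, Cyba, Ncf1, Ncf4 and Rac2, out of 54838 genes measured. Each symbol matched 1 gene identifier. The data are 2 single-cell RNA libraries of immune cells, sorted alive, from the intestines of mice that had all received 10 Gy of X-rays. One library came from WT (wild-type) mice and the other from DPF2 KO (knockout) mice, so both groups carry the irradiation and differ by genotype. Sorting used a viability dye and the presence or absence of a GFP or tdTomato signal, and which fluorescence was kept was not given in the sources used here. Dpf2 encodes a subunit of the BAF chromatin remodelling complex. The deleted part of the gene, the cells in which it was deleted, the number, age and sex of the mice, and the time after irradiation were also not given there.

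The oxidase is the enzyme with which neutrophils and macrophages reduce oxygen to superoxide. Its membrane part is a flavocytochrome made of gp91phox, the catalytic subunit encoded by Cybb, and p22phox, the partner encoded by Cyba. In resting cells p47phox (Ncf1) and p40phox (Ncf4) wait in the cytosol. On activation they move to the membrane, where the small GTPase Rac2 joins them. Loss of Cybb, Cyba, Ncf1 or Ncf4 causes forms of chronic granulomatous disease, and B cells also hold the complex at lower amounts. In the intestine the enzyme is best known for the killing of bacteria that cross the epithelium.

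The genes lie on GRCm38 as follows. Cybb is on chromosome X from 9435252 to 9487771, Cyba on chromosome 8 from 122424776 to 122432930 and Ncf1 on chromosome 5 from 134220053 to 134229625, all on the reverse strand. Ncf4 is on chromosome 15 from 78244801 to 78262580 on the forward strand, and Rac2 on chromosome 15 from 78559167 to 78572783 on the reverse strand. The UMI counts are given per gene, so the values do not separate exons or transcripts.

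Upstream sequences are shown for Cybb and Ncf1, the members past 1.5-fold between KO and WT in a myeloid class (neutrophils for Cybb, conventional dendritic cells for Ncf1). They are the 250 bases before the RefSeq start site, on build GRCm38.p6, reverse strand, read 5′ to 3′. The Cybb stretch lies inside the gene span given above, which on the reverse strand begins at 9487771. The RefSeq start and the start of that span thus differ for Cybb. Capitals mark a CCAAT motif, searched on both strands. The first line covers chrX:9469325-9469574 and the second chr5:134229626-134229875.
Cybb: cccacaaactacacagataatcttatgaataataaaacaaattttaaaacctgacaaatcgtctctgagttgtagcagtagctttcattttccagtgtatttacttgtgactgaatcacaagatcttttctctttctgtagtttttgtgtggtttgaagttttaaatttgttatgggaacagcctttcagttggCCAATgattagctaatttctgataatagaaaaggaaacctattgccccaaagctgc
Ncf1: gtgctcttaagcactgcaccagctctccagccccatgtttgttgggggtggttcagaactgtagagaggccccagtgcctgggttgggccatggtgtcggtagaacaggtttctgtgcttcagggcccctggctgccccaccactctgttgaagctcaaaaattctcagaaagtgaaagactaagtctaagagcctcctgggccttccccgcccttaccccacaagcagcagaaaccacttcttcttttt
The CCAAT motif of Cybb began at position -56 from the start site. The PU.1 core GAGGAA, searched on both strands over the 250 bases before and 50 after the start, matched Cybb once, on the opposite strand at position 10. Neither motif was found in the 300 bases of Ncf1 or of Cyba, the other member with an entry (3 of 5 members were in the RefSeq table). Of 32851 promoters of that length, 28.3% held GAGGAA and 37.4% held CCAAT, so either match is common.

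After filtering, 10259 WT and 8265 KO cells remained, with medians of 4543 and 4112 UMIs per cell. A UMI (unique molecular identifier) stands for 1 captured RNA molecule. Clusters were given a class from marker genes, and the class names below mean cells like that type. The 11 neutrophil markers summed to 22750 UMIs per 1000000 in WT and 24217 in KO neutrophils, and none of them was at 0. In B cells the 10 B cell markers summed to 9364 and 8771. Between the libraries, 24 cell barcodes were shared. Dpf2 itself was at 33.3 (95% interval 31.9 to 34.9) UMIs per 1000000 in WT and 19.6 (18.4 to 21.0) in KO, a KO over WT ratio of 0.589, and it was lower in KO in 9 of 9 compared classes. UMIs remained in KO, and whether they come from the deleted part cannot be told from gene counts. Each genotype has 1 library, so no difference here has a replicate check and no test was run. Every interval is a 95% interval that covers counting error only, and genotype, library, mice and sort cannot be told apart.

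A level is the sum of a gene's UMIs in a class per 1000000 UMIs that the class holds. A fold difference is called where the KO and WT levels, after 10 was added to each, differed at least 1.5-fold. The compared classes were the 9 with at least 100 cells in each library. Plasmacytoid dendritic cells (43 and 33 cells in WT and KO) and stromal cells are described only.

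Across the classes, the subunits did not follow 1 pattern. The membrane subunit Cybb was highest in plasmacytoid dendritic cells and in monocytes or macrophages. Cyba was found in every class, from 112 in KO ILC3 to 625 in WT monocytes or macrophages. Ncf1 and Ncf4 were highest in neutrophils. Rac2 was high in neutrophils, in plasmacytoid dendritic cells and in WT T cells, NK cells, B cells and ILC3.

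**Figure D1:**
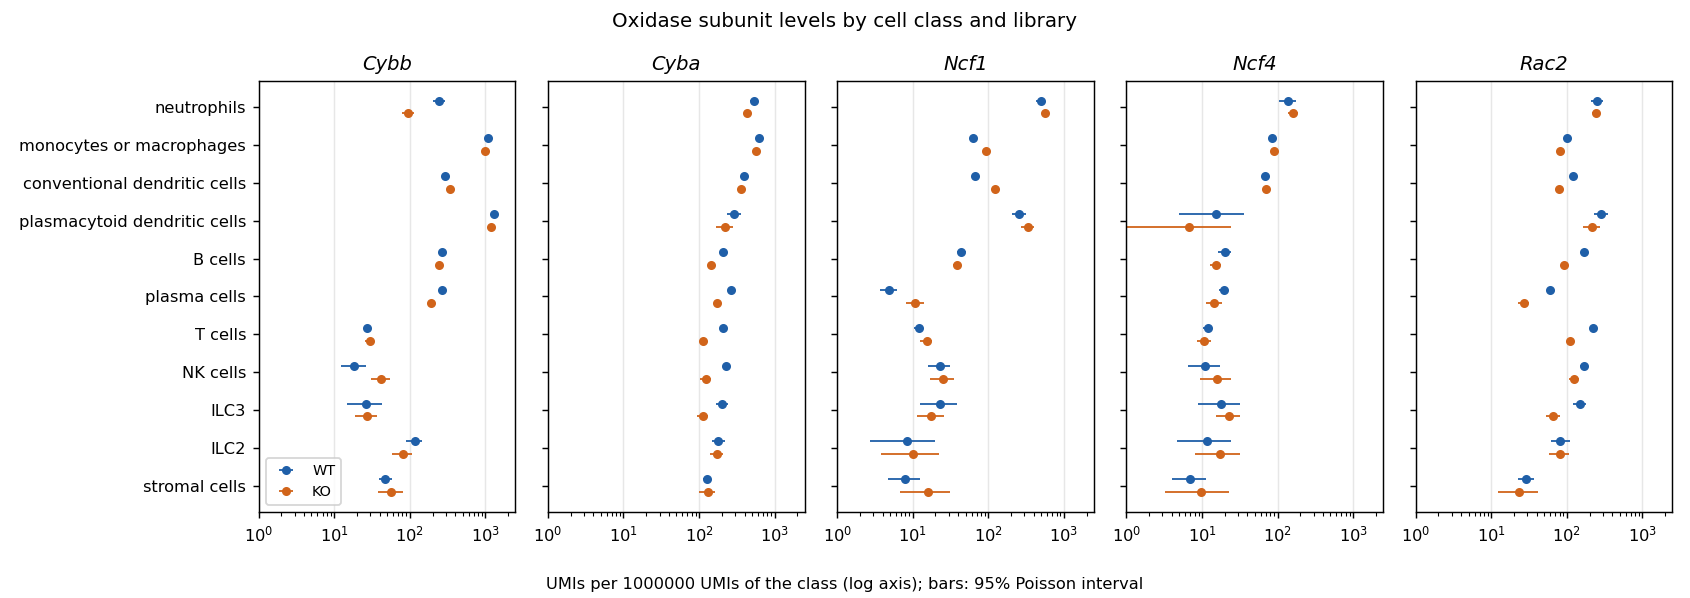
Level of each subunit (UMIs per 1000000 UMIs of the class, log axis) in 11 named classes, with WT in blue and KO in orange and bars for the 95% Poisson interval. Ncf1 stands at 491 and 556 in neutrophils against 4.80 and 10.8 in plasma cells, while Cyba varies far less between classes.

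The catalytic subunit Cybb was at 1315.4 (1193.7 to 1446.1) in WT and 1190.8 (1069.5 to 1322.1) in KO plasmacytoid dendritic cells. In monocytes or macrophages it was at 1079.9 (1057.9 to 1102.2) in WT and 989 (967 to 1010.7) in KO. These are the highest 4 values, and the intervals of both classes meet in neither library. Then followed conventional dendritic cells at 289 and 343, B cells at 269 and 245, plasma cells at 266 and 191, and neutrophils at 244 and 94.9. In WT the intervals of these 4 classes overlapped (200.1 to 294 in neutrophils, 255 to 285 in B cells, 257 to 275 in plasma cells and 277 to 303 in conventional dendritic cells), apart from those of plasma cells and conventional dendritic cells, which do not meet. T cells, a class that should hold little Cybb, were at 26.9 and 29.6. NK cells were at 18.5 and 41.4, ILC3 at 26.0 and 27.0, stromal cells at 47.6 and 57.0, and ILC2 at 116 and 80.1.

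Cyba, whose protein holds the catalytic subunit stable in the membrane, was highest in monocytes or macrophages (625 and 568 in WT and KO) and neutrophils (536 and 438). Conventional dendritic cells followed at 399 and 355, then plasmacytoid dendritic cells at 292 and 220.5, plasma cells at 264 and 175 and B cells at 205 and 144. T cells were at 209 (203 to 216) in WT, which overlaps the interval of WT B cells (192 to 218), and at 112 in KO. The range over classes was thus narrower for Cyba than for Cybb.

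Ncf1, the organiser subunit that brings the cytosolic parts to the membrane, was at 491 (429 to 561) in WT and 556 (514 to 601) in KO neutrophils. Plasmacytoid dendritic cells held 255 (203 to 316) and 332 (269.9 to 405). Conventional dendritic cells were at 67.4 and 123, monocytes or macrophages at 63.0 and 94.0, and B cells at 43.8 and 38.5. In plasma cells only 58 UMIs in WT and 53 in KO were counted, which gives 4.80 (3.65 to 6.21) and 10.8 (8.05 to 14.1). Those values lie below the 12.0 and 15.2 of T cells.

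Ncf4, the subunit that binds a phosphoinositide of the phagosome, was at 137 (105.2 to 176) in WT and 159.9 (138 to 185) in KO neutrophils. Monocytes or macrophages held 83.6 and 88.7 and conventional dendritic cells 67.4 and 70.0 of it. In B cells it was at 20.1 and 15.1, in plasma cells at 19.4 and 14.6, and in T cells at 12.0 and 10.6. Plasmacytoid dendritic cells had only 5 UMIs of Ncf4 in WT and 2 in KO, or 15.4 (4.99 to 35.9) and 6.78 (0.822 to 24.5). Both intervals include the T cell level, in the class that held the most Cybb.

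Rac2, the blood cell form of the Rac GTPases, was at 250.2 (206 to 301) in WT and 243 (216 to 274) in KO neutrophils and at 283 and 214 in plasmacytoid dendritic cells. Monocytes or macrophages were lower at 101 and 82.0, and conventional dendritic cells at 122 and 79.9. Of the WT lymphocytes, T cells (221), NK cells (170.4), B cells (169) and ILC3 (148) held more of it than these, but ILC2 (82.3) did not. Plasma cells were at 60.1 and 27.0 in WT and KO, and stromal cells at 29.2 and 23.6.

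Over the 22 pairs of a class and a library, the log levels of the members went together to unequal degrees. Pearson's r was 0.837 between Cyba and Ncf4, 0.657 between Cyba and Ncf1 and 0.643 between Ncf1 and Ncf4. It was 0.640 between Ncf1 and Rac2, 0.634 between Cybb and Cyba and 0.570 between Cybb and Ncf1. Lower values were 0.405 between Cyba and Rac2, 0.368 between Cybb and Ncf4, 0.285 between Ncf4 and Rac2 and 0.175 between Cybb and Rac2. These values describe the pattern only, since the points share 2 libraries and the free RNA in each.

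The other genes with the most similar pattern over the same 22 points, of 7729 searched, differed for each member. For Cybb they were Nceh1, a cholesterol ester hydrolase (r 0.940), Trim25 (0.909) and Unc93b1, which carries Toll-like receptors to endosomes (0.896). For Cyba they were Taldo1, an enzyme of the pentose phosphate pathway (0.892), Cd300c2 (0.890) and Vamp8 (0.876). For Ncf1 they were the kinase gene Fgr (0.942), the lectin gene Cd33 (0.932) and Vav1, an exchange factor for Rac (0.930). For Ncf4 they were the chemokine receptor gene Ccr1 (0.951), Clec4n (0.949) and the inflammasome gene Nlrp3 (0.948). For Rac2 they were Apbb1ip (0.883), Cd53 (0.836) and Tmem156 (0.823). No gene was among the first 3 of more than 1 member.

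Which subunit had the fewest transcripts depended on the class and on the scale. By UMIs per 1000000, Ncf4 was lowest in WT neutrophils (137) and Cybb in KO neutrophils (94.9). In monocytes or macrophages the lowest was Ncf1 in WT (63.0, with Ncf4 next at 83.6) and Rac2 in KO (82.0, with Ncf4 at 88.7 and overlapping intervals). Ncf4 was lowest in both libraries in plasmacytoid dendritic cells and B cells, and Ncf1 in both in plasma cells. In conventional dendritic cells Ncf1 and Ncf4 were equal in WT at 67.4, with 449 UMIs each, and Ncf4 was lowest in KO at 70.0.

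Reads from the 3′ end are not divided by transcript length as a rule, but reads primed within introns would favour long genes. Cybb spans 52520 bases and Cyba 8155. Divided by the length of the longest annotated transcript, the lowest member in neutrophils was Cybb in both libraries (51.2 in WT and 19.97 in KO, UMIs per 1000000 and kilobase), with Rac2 next (82.3 and 80.1). On that scale Cyba was the highest member in all 22 class and library pairs but has the shortest transcript, of 744 bases. The lowest member was the one found by UMIs in 11 of 22 pairs per kilobase of transcript and in 10 of 22 per kilobase of gene span. In B cells (Ncf4) and plasmacytoid dendritic cells (Ncf4) it was the same on all 3 scales in both libraries.

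A gene set against its own highest level needs no length. In neutrophils, Cyba, Ncf1, Ncf4 and Rac2 were at 70.0% to 100% of their highest level over 11 classes and 2 libraries, whereas Cybb was at 18.5% in WT and 7.21% in KO. In monocytes or macrophages, Cybb (82.1% and 75.2%) and Cyba (100% and 90.8%) were near their highest, and Ncf1 was at 11.3% and 16.9%. Conventional dendritic cells had Ncf1 lowest as well, at 12.1% and 22.0%, with Cybb at 22.0% and 26.1%. Plasmacytoid dendritic cells had Cybb at 100% and 90.5% but Ncf4 at 9.61% and 4.24%. B cells had Ncf1 lowest at 7.87% and 6.91%, and Ncf4 at 12.54% and 9.45%. Plasma cells had Ncf1 at 0.864% and 1.93%, the lowest share of any of these classes. Protein was not measured, so a low transcript share is not a measure of which subunit limits the enzyme.

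**Figure D2:**
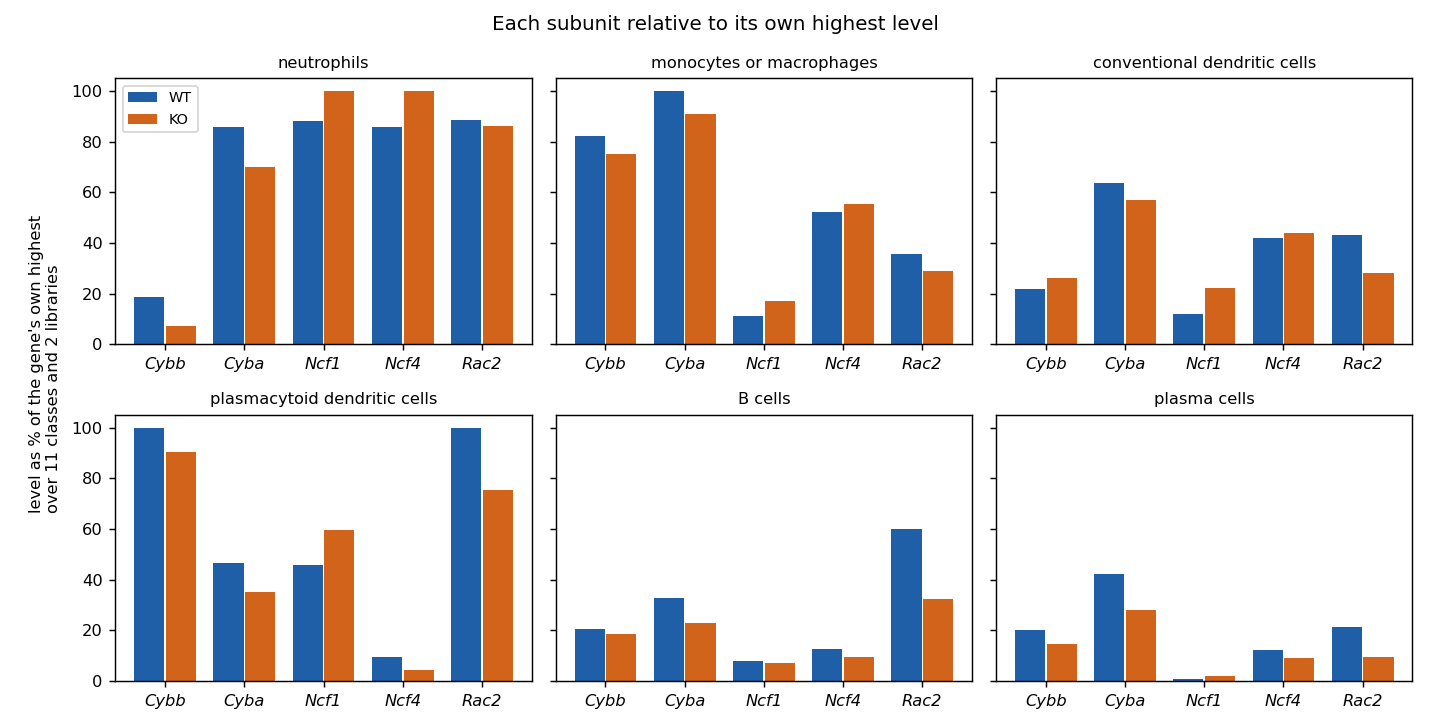
Level of each subunit as a percentage of its own highest level over 11 classes and 2 libraries, in 6 myeloid and B classes (WT blue, KO orange). The bar that falls short is Cybb in neutrophils (18.5% and 7.21%), Ncf1 in monocytes or macrophages (11.3% and 16.9%) and in plasma cells (0.864% and 1.93%), and Ncf4 in plasmacytoid dendritic cells (9.61% and 4.24%).

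Shares of cells with at least 1 UMI, after each cell had been thinned to 1000 UMIs, gave a similar picture. Of the monocytes or macrophages, 60.0% (57.4 to 62.5) in WT and 56.5% (53.5 to 59.6) in KO showed Cybb, against 12.3% (8.21 to 17.5) and 4.91% (3.06 to 7.40) among neutrophils. T cells gave 2.37% and 3.08%. Without thinning, the Cybb shares were 95.6% and 92.1% of monocytes or macrophages, 15.8% and 11.05% of neutrophils, and 10.5% and 11.2% of T cells. The median T cell held 4128 UMIs in WT and 4221 in KO, and the median neutrophil 1469.5 and 1743.5. Of thinned neutrophils, 40.3% (33.6 to 47.2) and 38.6% (33.9 to 43.3) held Ncf1, as did 0.462% and 1.16% of thinned plasma cells, against 1.16% and 1.72% of T cells. The plasma cell shares lie below those of T cells.

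Detection of all 5 subunits in a single cell was rare. At 1000 UMIs per cell no cell of any class held all 5, which, at the limit of 3 counts, allows shares of up to 1.42% of WT and 0.701% of KO neutrophils and 0.208% and 0.286% of monocytes or macrophages. At full depth all 5 were seen in 5.58% of WT and 11.5% of KO monocytes or macrophages and in 11.3% and 16.5% of conventional dendritic cells. In neutrophils they were seen in 2 of 260 WT and 9 of 516 KO cells, and in B cells in 0.624% and 0.330%. Full-depth shares move with depth: the median monocyte or macrophage held 5515.5 UMIs in WT and 6941 in KO, and the median conventional dendritic cell 9167.5 and 10690.5.

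The KO difference was then taken for each member in each class. Of 45 member and class pairs, 8 were called lower in KO and 2 higher at 1.5-fold, and at 2-fold 2 were lower and 0 higher. Of the 45, 36 were eligible for the count over all genes (at least 100 UMIs in WT and KO together, and found in 5% or more of cells of either). In the 5 myeloid and B classes, all 25 pairs were eligible, 3 were lower (Cybb in neutrophils, Rac2 in B cells and Rac2 in plasma cells) and 1 was higher (Ncf1 in conventional dendritic cells). The other called pairs were in T cells, NK cells and ILC3. The shares of all eligible genes past 2-fold in KO, against which the 2-fold counts are read, were 4.48% higher and 2.37% lower in neutrophils, 0.537% and 0.696% in monocytes or macrophages, 0.69% and 0.428% in conventional dendritic cells, and 0.0722% and 0.318% in B cells. They were 0.498% and 1.11% in plasma cells, 0.188% and 0.578% in T cells, 0.264% and 0.527% in NK cells, 0.426% and 0.791% in ILC3 and 1.48% and 0.973% in ILC2. Upward past 1.5-fold were 1.49% of genes in B cells, 2.7% in T cells, 2.97% in NK cells, 5.3% in ILC3 and 7.97% in ILC2, where 5.23% went downward.

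**Figure D3:**
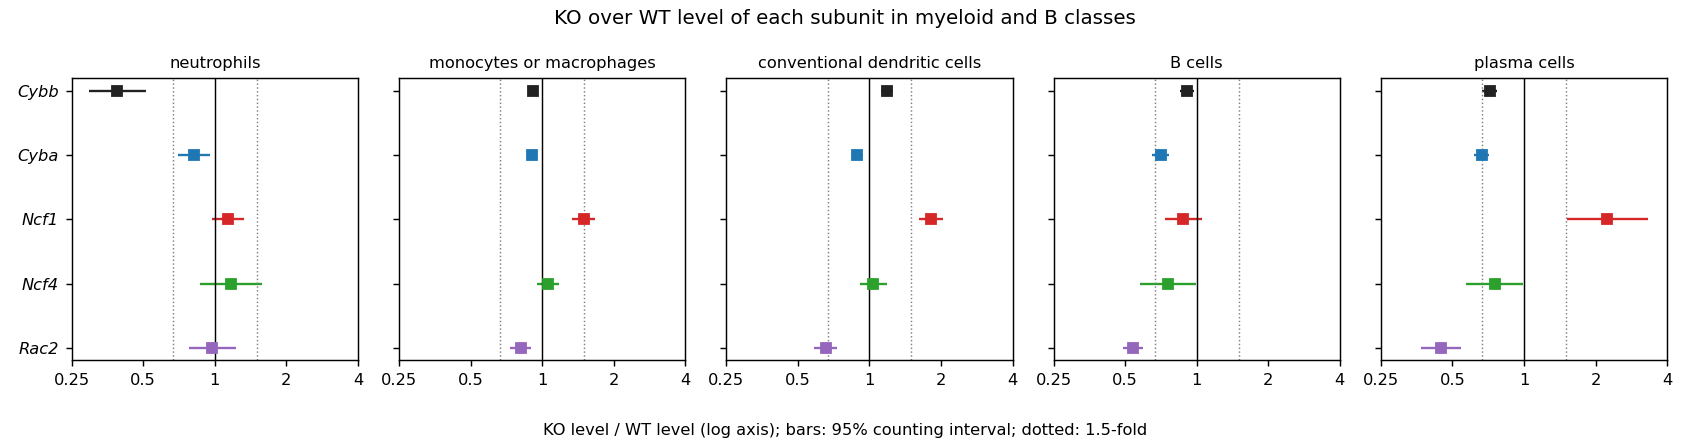
KO level over WT level of each subunit in 5 myeloid and B classes on a log axis, with bars for the 95% counting interval and dotted lines at 1.5-fold. Cybb in neutrophils (0.390) and Rac2 in B cells (0.537) and plasma cells (0.449) lie to the left, Ncf1 in conventional dendritic cells (1.82) to the right. Ncf1 in plasma cells (2.24) rests on 58 and 53 UMIs and is not called after 10 was added to both levels. Rac2 in conventional dendritic cells (0.654) and Cyba in plasma cells (0.663) also lie past the left dotted line and are not called for the same reason.

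In neutrophils Cybb was lower in KO and the other subunits were not called. Cybb was at 244 in WT (110 UMIs in 260 cells) and 94.9 in KO (108 UMIs in 516 cells), a ratio of 0.390 (0.296 to 0.513), past 2-fold. Of all eligible genes in neutrophils, 9.22% were at least 1.5-fold lower in KO and 2.37% at least 2-fold lower. The ratios of the others were 0.817 (0.699 to 0.956) for Cyba, 1.13 (0.970 to 1.32) for Ncf1, 1.17 (0.869 to 1.58) for Ncf4 and 0.973 (0.779 to 1.22) for Rac2. Higher calls made up 13.9% of the eligible neutrophil genes, and none of the 5 members was among them.

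The Cybb counts of neutrophils sat in few cells. In WT, 3 cells held 49 of the 110 UMIs, and in KO 3 cells held 36 of the 108. Cells of 5000 or more UMIs, of which there were 7 in WT and 31 in KO, had Cybb at 829 and 226. Without them Cybb was at 155 (119 to 199.6) in 253 WT cells and 59.3 (44.4 to 77.5) in 485 KO cells, a ratio of 0.381 (0.259 to 0.560), so the difference was as large without the deep cells. With called doublets kept, the difference on the log2 scale was -0.71 in place of -1.27. Marker genes differed within the class too. Of 8 neutrophil genes, Stfa2l1 (153 in WT and 1742.4 in KO) and Retnlg (268 and 807) were higher in KO and Lcn2 (441 and 232) was lower, while S100a8 (6161.1 and 7183.01), S100a9, Csf3r, Cxcr2 and G0s2 had ratios from 0.810 to 1.17. The neutrophils of the libraries thus differed in more than Cybb. Of 8 monocyte and macrophage genes, summed at 1204 and 1410.2, Csf1r, C1qa, C1qb, C1qc and Ms4a7 together were at 28.8 and 112, Cd14 was at 903 and 1130.8, and Lyz2 (252 and 156) and Ccr2 (19.9 and 12.3) were lower in KO. At the ratio of Cybb to those 5 genes in monocytes or macrophages, 33.7 of the WT and 81.6 of the KO neutrophil level of Cybb would have come with such RNA. The part of these differences in that of Cybb was not tested. In cells with Y-linked and no Xist UMIs (60 and 112 neutrophils) the Cybb ratio was 0.428 (0.264 to 0.695), and Rac2 there was at 142 in WT and 307 in KO. Neutrophils with Xist and no Y-linked UMIs were under 50 in a library. Cybb is X-linked, and both libraries mixed male and female cells.

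In monocytes or macrophages no member was called. Cybb had a ratio of 0.916 (0.888 to 0.944), Cyba 0.908 (0.873 to 0.945), Ncf4 1.06 (0.955 to 1.18) and Rac2 0.813 (0.733 to 0.901). Ncf1 was at 63.0 in WT and 94.0 in KO, a ratio of 1.49 (1.33 to 1.67), just inside the threshold. Of the genes eligible in this class, 4.31% passed 1.5-fold upward in KO and 2.77% downward. Ncf1 was past 1.5-fold in the cells with Y-linked UMIs only, at 58.7 and 99.1.

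The class held 3 clusters whose shares differed between the libraries. One led by Inhba, Spp1 and Mmp12 had 815 WT and 578 KO cells, one led by the monocyte genes Chil3 and F13a1 had 542 and 267, and one led by the complement genes C1qa and C1qc with Mrc1 had 95 and 218. Cybb was high in each, from 891 in the KO monocyte cluster to 1127.9 in the WT C1qa cluster. Cyba was lower in the C1qa cluster, at 294 in WT and 297 in KO, than in the monocyte cluster, at 670.01 and 712. Ncf1 differed most in the monocyte cluster, at 54.5 and 97.2 (ratio 1.79, 1.45 to 2.20), then in the Inhba cluster at 66.2 and 90.8 (1.37), and was at 94.2 and 102 (1.08, 0.732 to 1.63) in the C1qa cluster. Ncf4 was at 79.2 and 104 in the monocyte cluster and at 87.0 and 86.4 in the Inhba cluster. Rac2 was at 93.7 and 104.9 in the monocyte cluster, at 107 and 80.4 in the Inhba cluster and at 85.9 and 47.9 in the C1qa cluster.

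In conventional dendritic cells Ncf1 was higher in KO, at 67.4 (61.3 to 73.9) in WT and 123 (115 to 131) in KO, a ratio of 1.82 (1.62 to 2.04). The background in this class was 4.04% of eligible genes past 1.5-fold upward and 2.98% downward. Cybb had a ratio of 1.18 (1.12 to 1.26), Cyba 0.890 (0.843 to 0.940) and Ncf4 1.04 (0.914 to 1.18). Rac2 was at 122 and 79.9, a ratio of 0.654 (0.587 to 0.728), which was not called because 10 was added to both levels. After thinning, 6.75% (4.93 to 8.99) of WT cells held Ncf1 against 12.8% (10.3 to 15.7) of KO cells.

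The Ncf1 difference lay in 1 of the 2 dendritic cell clusters. In the cluster led by Ccl17, Ccl22 and Zfp366 (493 WT and 518 KO cells), Ncf1 was at 73.7 and 146, a ratio of 1.98 (1.75 to 2.26). In the cDC1 cluster led by Cadm1, Xcr1 and Clec9a (145 and 108 cells), it was at 52.9 and 54.6, a ratio of 1.03 (0.780 to 1.36). These intervals do not overlap, and the difference between the clusters was not tested. Cybb also split the clusters, at 390.03 and 441 in the Ccl17 cluster against 55.4 and 61.3 in the cDC1 cluster. The Ccl17 cluster met the naming rule for cDC2, but Ccl17 and Ccl22 are markers of mature dendritic cells, so it is called by its leading genes here. Over the whole class, the 10 mature dendritic cell markers summed to 807 in WT and 1973.01 in KO, whereas the 11 cDC2 markers were at 566 and 531 and the 9 cDC1 markers at 1225.2 and 1355.8. Neutrophil genes were also higher in the KO class (8 genes summed at 19.1 and 52.7), and monocyte and macrophage genes lower (8 genes at 379.5 and 299). The part of each in the Ncf1 difference was not tested. The call rests on the Ccl17 cluster being in the class: where cells were limited to 10% mitochondrial UMIs, or to 1000 UMIs or more, the class held 149 WT and 109 KO or 153 and 106 cells, and Ncf1 differed by 0.03 and 0.04 on the log2 scale. With each library clustered alone (646 and 107 cells) it was at -0.33. Cybb, at 0.24 on that scale in the main analysis, was at -2.43 there.

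**Figure D4:**
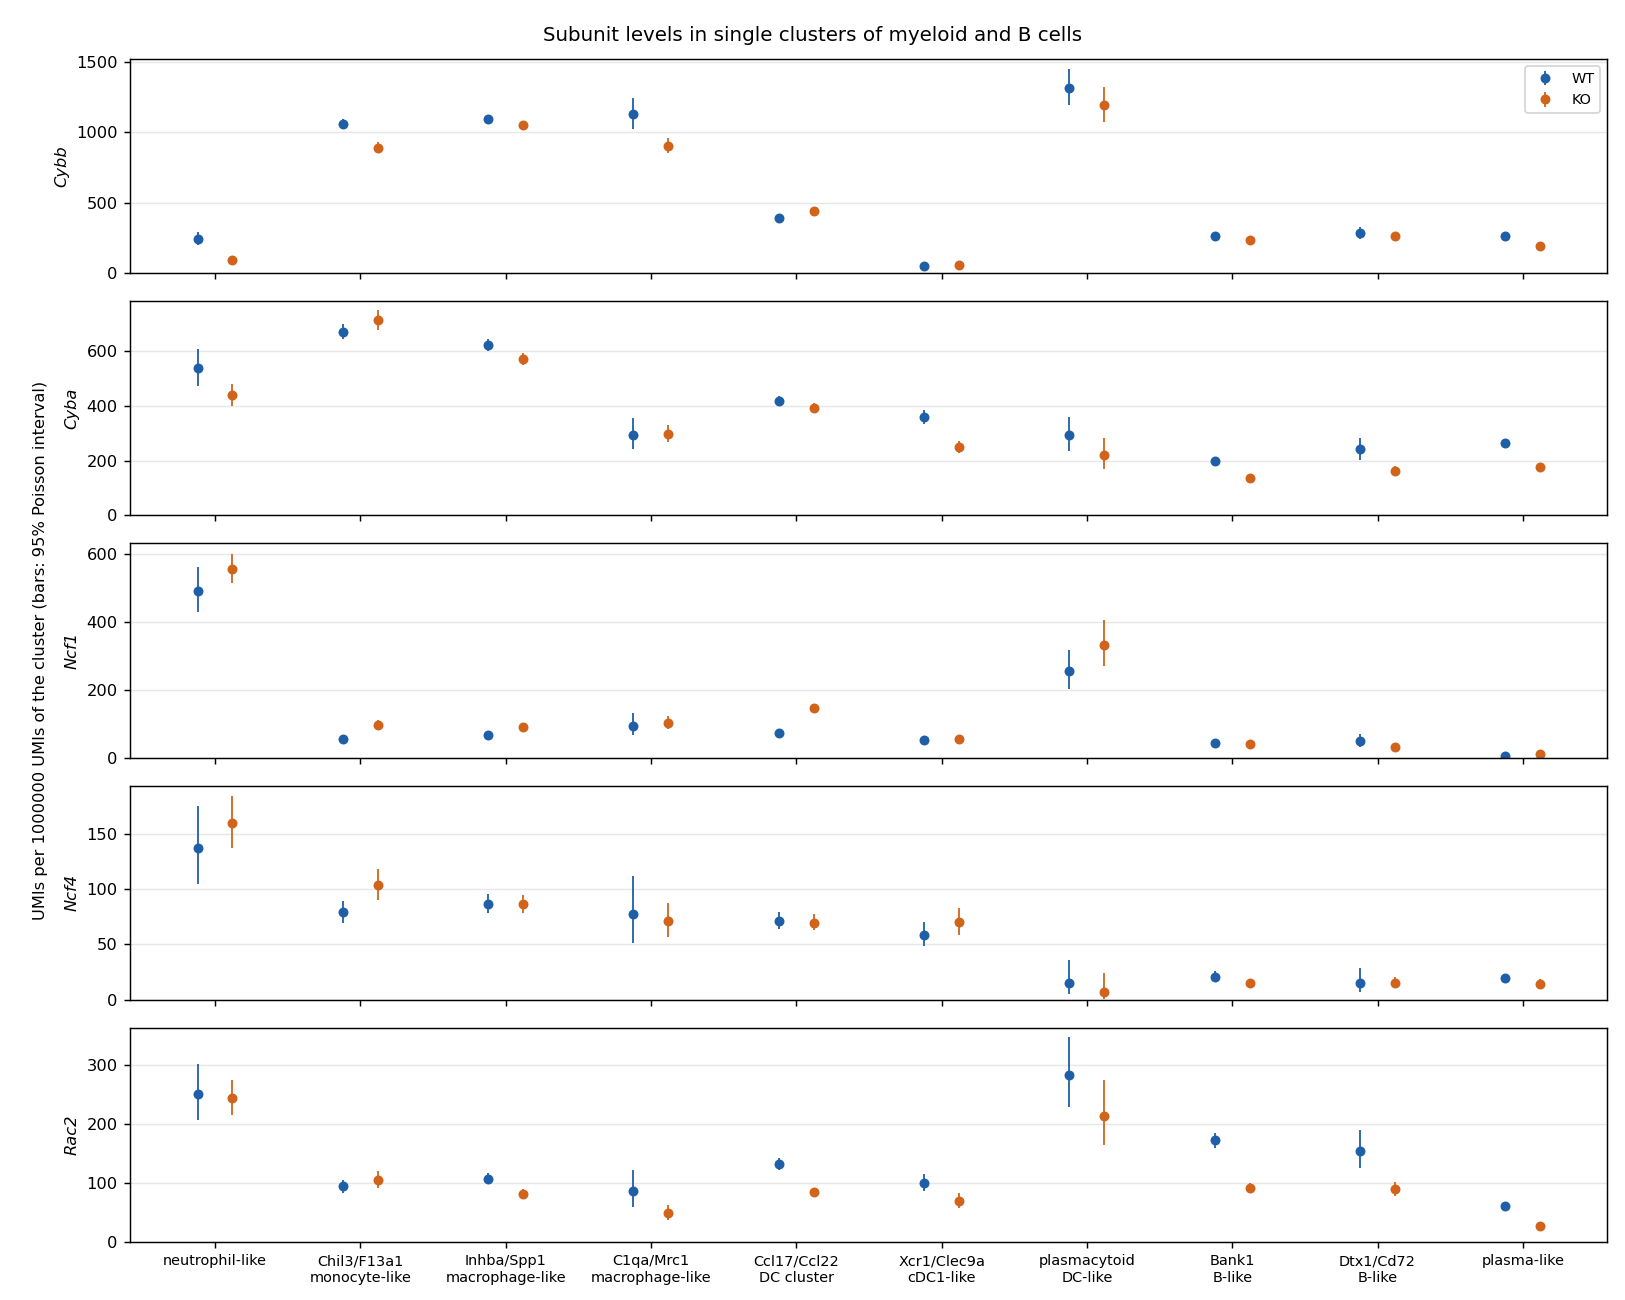
Level of each subunit (UMIs per 1000000 UMIs of the cluster, linear axes from 0) in 10 clusters of myeloid and B cells, with WT in blue and KO in orange and bars for the 95% Poisson interval. Cybb is at 390.03 and 441 in the Ccl17 cluster and at 55.4 and 61.3 in the cDC1-like cluster. The KO level of Ncf1 is above WT, with a ratio interval above 1, in the Ccl17, monocyte-like, Inhba and plasma-like clusters. It is also above WT in the neutrophil-like, C1qa and cDC1-like clusters, where that interval includes 1. In the plasmacytoid cluster it is above WT as well, with level intervals that overlap.

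In B cells Rac2 was lower in KO, at 169 (158 to 182) in WT and 91.1 (85.1 to 97.4) in KO, a ratio of 0.537 (0.487 to 0.593). Of eligible B cell genes, 3.19% were at least 1.5-fold lower in KO. Cyba was at 205 (192 to 218) and 144 (137 to 152), a ratio of 0.704 (0.648 to 0.766), not past 1.5-fold. Cybb (0.909, 0.848 to 0.9745), Ncf1 (0.879, 0.738 to 1.05) and Ncf4 (0.753, 0.576 to 0.989) differed less from 1. Rac2 was lower in both B cell clusters: at 172 and 91.7 in the one led by Bank1 and Ms4a1 (954 and 1733 cells) and at 154 and 89.1 in the one led by Ebf1, Dtx1 and Cd72 (167 and 688 cells). T cell genes, which mark cells rich in Rac2, were also lower among B cells in KO (5 genes summed at 62.5 and 22.0), and their part in the Rac2 difference was not tested. After thinning, 12.3% (10.4 to 14.4) of WT B cells held Rac2 against 7.52% (6.49 to 8.65) of KO B cells.

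In plasma cells Rac2 was at 60.1 (55.8 to 64.7) in WT and 27.0 (22.6 to 32.0) in KO, a ratio of 0.449 (0.370 to 0.540). Among eligible plasma cell genes 7.95% passed 1.5-fold downward and 2.15% upward, and the median eligible gene was at -0.16 on the log2 scale. Genes of immunoglobulin and secretion took more of the KO UMIs (Jchain, Igha, Igkc, Mzb1 and Derl3 summed at 378832 and 440069). Scaling by the median of gene ratios raised KO over WT by 0.24 on the log2 scale. Rac2 was then at -0.73 (from -0.92), Cyba at -0.33 (from -0.57), Cybb at -0.23 (from -0.46) and Ncf4 at -0.10 (from -0.26). Rac2 stayed past 1.5-fold under both scalings. T cell genes, from cells rich in Rac2, were lower among KO plasma cells, with 5 of 5 called (summed at 83.9 and 26.4), and their part in the Rac2 difference was not tested. Ncf1, at 0.49, passed 1.5-fold after that scaling, at 0.59, as it did in Xist-only cells, at 0.79, with 1 in place of 10 added to the levels, at 1.02, and less the median of genes of like span, at 0.68. The Ncf1 levels lie below those of T cells. Among plasma cells, macrophage markers summed to 64.8 in WT and 266 in KO, B cell markers to 547 and 845, and neutrophil markers to 37.4 and 79.1. Monocyte markers (640 and 478) and plasmacytoid dendritic cell markers (1918 and 1046) were among those that went the other way. The part of such RNA in the Ncf1 difference was not tested.

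Outside the myeloid and B classes, Rac2 and Cyba were both called lower in KO in T cells and ILC3, Cyba alone in NK cells and neither in ILC2. In T cells Rac2 was at 221 and 111 (ratio 0.503, 0.467 to 0.541) and Cyba at 209 and 112 (0.535, 0.496 to 0.576), where 4.32% of eligible genes were at least 1.5-fold lower. In ILC3 Rac2 was at 148 and 66.4 (0.449, 0.332 to 0.607), past 2-fold, and Cyba at 203 and 112 (0.550, 0.431 to 0.702), with 5.48% of genes 1.5-fold lower and 0.791% 2-fold lower. In NK cells Cyba was at 227 and 122 (0.537, 0.442 to 0.649), with 4.17% of genes 1.5-fold lower, and Rac2 at 170.4 and 125 (0.734), not called. In NK cells with Y-linked UMIs only, Cyba was at 197 and 143 and not called. The ILC2 ratios were 0.948 for Cyba and 0.973 for Rac2. Of 8 heat shock genes, 4 were called higher in KO T cells (summed at 1786 and 2972), 4 in NK cells (2658 and 4526), 3 in ILC3 (8255 and 12172), 5 in ILC2 (1948 and 4022) and 3 in B cells (2259 and 3120.2). Of 11 immediate early genes, 7 were called higher in KO T cells (summed at 3864 and 5940.0), 1 in NK cells (5166 and 7154), none in ILC3, where 1 was lower (15356.5 and 14710.3), and 2 in ILC2 (6139 and 7791). Their part in the Rac2 and Cyba differences was not tested. Cybb in NK cells was at 18.5 and 41.4 on 30 and 53 UMIs, too few for the count over all genes.

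Rac2 and Cyba were each below their WT level in 9 of 9 compared classes, although the intervals of both in ILC2 and of Rac2 in neutrophils cross 1. Within monocytes or macrophages, both were above WT in the monocyte cluster, with intervals that include 1. The ratios there were 1.06 (0.994 to 1.14) for Cyba and 1.12 (0.936 to 1.34) for Rac2. In neutrophils with Y-linked UMIs only, Rac2 was at 1.06 and Cyba at 0.22 on the log2 scale. Less the median of genes of like span, Rac2 in ILC2 was at 0.01. T cell genes spanning 78 to 8857 bases, among them Cyba, had a median of -0.13, against 0.08 for those of 77024 or more. The part of gene span in the Rac2 and Cyba differences was not tested. How many of all genes were below WT in 9 of 9 classes was not counted, so that count has no background. The ratios share the same 2 libraries and are not independent.

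The wider genes of the oxidase came from 7 lists of 56 genes without the members. Of those 56, 27 were eligible in neutrophils (1 higher, 5 lower in KO), 43 in monocytes or macrophages (0 and 2), 42 in conventional dendritic cells (3 and 2), 39 in B cells (0 and 4) and 40 in plasma cells (2 and 7). Their median log2 ratios were -0.02, 0.00, -0.15, -0.07 and -0.17, against 0.06, 0.07, -0.01, 0.02 and -0.16 over all eligible genes of those classes. Of all eligible genes, 13.9% were higher and 9.22% lower past 1.5-fold in neutrophils, and 4.31% and 2.77% in monocytes or macrophages. The shares were 4.04% and 2.98% in conventional dendritic cells, 1.49% and 3.19% in B cells and 2.15% and 7.95% in plasma cells.

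Of the membrane partners, Nrros, which limits the flavocytochrome, was at 66.4 and 65.9 in neutrophils and 87.1 and 110.2 in monocytes or macrophages. Nrros was at 132 and 180.1 in conventional dendritic cells and 186 and 190.4 in B cells. Cybc1, the chaperone of the flavocytochrome, was at 22.9 and 20.8 in monocytes or macrophages and 34.7 and 41.9 in B cells. The proton channel gene Hvcn1, which balances the charge the enzyme moves, was at 160.4 and 151 in B cells and at 15.2 and 23.9 in monocytes or macrophages. None of these was called. Rac1, the other Rac GTPase, had ratios from 0.649 in plasma cells to 1.001 in neutrophils and was not called in any of the 5 classes.

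Among GTPase regulators, neutrophils had lower Vav1 (246 and 144) and Tiam1 (106 and 55.4), both exchange factors for Rac. B cells had lower Arhgdib (189.8 and 117), which holds Rac GTPases in the cytosol. Plasma cells had lower Dock2 (463 and 269), another exchange factor. Of the kinases, 2 were higher in conventional dendritic cells: Syk, which acts below Fc and lectin receptors, at 383 and 666, and Prkcd, which phosphorylates p47phox, at 114 and 189. Prkca was lower there at 121 and 62.5.

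Of the transcription factors known to drive these genes, Spi1, which encodes PU.1, was at 228 and 311 in neutrophils (1.36, 1.09 to 1.72), 259 and 318 in monocytes or macrophages and 238 and 213 in conventional dendritic cells. Irf8 was at 120.2 and 92.3 in monocytes or macrophages, 204 and 151 in B cells and 51.0 and 97.8 in plasma cells, where it was called higher.

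Of the genes that handle oxidants, Prdx5, a peroxidase that removes hydrogen peroxide, was called lower in KO in 4 of the 5 classes. It was at 1038.3 and 621 in neutrophils, 916 and 485 in monocytes or macrophages, 223 and 104.9 in conventional dendritic cells and 63.6 and 35.1 in B cells. In those classes 9.22%, 2.77%, 2.98% and 3.19% of all eligible genes were at least 1.5-fold lower. How many genes were called lower in 4 of the 5 classes was not counted, so the Prdx5 count has no background. B cells had lower Cat, the catalase gene (28.9 and 14.5). Plasma cells had lower Prdx2, another peroxidase (39.4 and 18.3), and Txn1, the thioredoxin gene (285 and 159). Sod1, which turns superoxide into hydrogen peroxide, was called higher in conventional dendritic cells, at 201 and 366.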

How the data were processed

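The 5 members and all gene lists were chosen with earlier results of these data known. The authors deposited raw UMI counts for each gene in each barcode (Cell Ranger 7.0.0 and GRCm38, per the submitters' processing notes). Whether intronic reads were counted was not given in the sources used here. Among 54838 gene identifiers, 99.9% were in the GENCODE annotation used for spans. Totals were 64786549 UMIs over 10958 WT barcodes and 49590755 over 8794 KO barcodes.

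Cells with under 200 genes or 500 UMIs or over 20% mitochondrial UMIs were left out, then doublets called by Scrublet in scanpy 1.11.5 (637 in WT, 416 in KO). Both libraries were clustered together (2000 variable genes without members, wider oxidase genes or receptor segments, 30 components, 20 neighbours, leidenalg 0.10.2, resolution 1). Clusters were named from marker lists by a rule written after the clusters had been seen: at least 3 markers among the 100 leading genes, no other class ahead among the first 10, T cells in place of innate lymphoid or no name where 2 of 3 CD3 genes were in 25% of cells, and mixed clusters unnamed. Unnamed clusters held 828 WT and 677 KO cells.

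Intervals are exact Poisson (levels), conditional binomial (ratios) and Clopper-Pearson (shares). Named genes were all members, up to 3 wider oxidase genes each way per class by size, some fixed wider genes, and 3 most similar genes per member. Some wider genes are counted in the list totals but not reported here by name. On simulated counts, 2-fold changes were recovered, that is past 1.5-fold, in 96.0% (neutrophils, 2365 genes) and 87.0% (B cells, 6924 genes) of 200 changed genes. The counts were Poisson draws from the profile of both libraries together. Variation between mice, libraries or cell mixes was not in them, so these shares cover counting error only.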

Additional observations from a re-analysis of the deposited data

Results flagged for a closer look

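Ncf4 in T cells had opposite KO differences in cells split by sex-linked transcripts. In cells with Xist and no Y-linked UMIs the KO over WT ratio was 1.53 (1.02 to 2.29), with levels of 8.99 and 13.8, and in cells with Y-linked and no Xist UMIs it was 0.510 (0.268 to 0.900), with levels of 14.8 and 7.56. The difference between them was not tested, and all 4 levels are low.

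Cybb was high in a cluster without a class. This cluster, led by Ccdc162, Ifih1 and Fap, had 397 WT and 196 KO cells with a median of 1217 UMIs and held Cybb at 784 (711 to 863) in WT and 513 (436 to 598) in KO. Cyba was at 313 and 315 there and Rac2 at 52.8 and 25.5, on 28 and 8 UMIs.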

How the results depend on the processing

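Of the 10 called pairs, all kept their 1.5-fold call with a prior of 1 per 1000000, both other scalings, a mean over cells, both other resolutions, clusters weighted alike, all variable genes, and the 4 alternatives added after seeing the data. Pairs past 1.5-fold higher in KO were 2 in the main analysis, 1 with doublets kept (Cybb in NK cells was lost), 1 with at most 10% mitochondrial UMIs, 1 with 1000 or more UMIs, 0 (of 40 pairs) with each library clustered alone and 6 (of 35) in cells with Y-linked UMIs only, where Cyba in NK cells was lost. No cluster was named NK cells where each library was clustered alone, so Cybb in NK cells could not be called there. Pairs past 2-fold lower were 2, but 0 with doublets kept and 1 with all variable genes, where Rac2 in ILC3 was at -0.94. In Xist-only cells there were 0 (of 30), but neutrophils and ILC3, the classes of both pairs, were not among those compared. Pairs past 2-fold higher were 0, but 2 with the prior of 1 and 1 in cells with Y-linked UMIs only. The Ncf1 call in conventional dendritic cells was lost at 10% mitochondrial UMIs, where that class held 149 WT and 109 KO cells, and at 1000 UMIs (153 and 106). It reversed to -0.33 on the log2 scale with each library clustered alone, where the class held 646 WT but 107 KO cells (the cDC1 cluster alone held 145 and 108 in the main analysis). In that setting Cybb in this class was at -2.43 (0.24 in the main analysis), Rac2 at -0.91 and Cyba at -0.66, each past 1.5-fold lower. The lowest member was the same as by UMIs in 11 of 22 class and library pairs per kilobase of transcript and in 10 per kilobase of gene span. Gene calls by class stayed within 1.5 times in 61 of 108 alternatives. No paired analysis was possible because each genotype has 1 library. Depth limits neutrophils most, and Ncf1 and Ncf4 in lymphocytes.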

Other observations

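The members were also counted in clusters without a class. One, led by the Paneth cell genes Defa24 and Defa30 with Pax5 and Ebf1, had 4 WT and 320 KO cells. In those KO cells Cybb was at 189 (167 to 213), Cyba at 121, Ncf1 at 25.8, Ncf4 at 14.0 and Rac2 at 71.2, each below the level of the KO B cells. Another, led by Gm26917 and Lars2 with a median of 1024 UMIs (255 and 138 cells), had Cybb at 112 and 80.1, Cyba at 177 and 80.1, and Rac2 at 106 and 75.7.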
